A study of Homo sapiens with 4 samples.

Results

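The intervals described here are the 24 that lie wholly between positions 15500000 and 16800000 of chromosome 2 (build hg19), the 1.3 Mb that holds the genes DDX1 and MYCN. They come from a deposited list of 21308 genomic intervals, of which 21139 are on the 22 autosomes and chromosome X and 944 on chromosome 2. Ranks by width, and other counts and shares given below for the list, are over those 21139 only. The region was chosen because its intervals were already known to be very wide, so width and the covered length that follows from it chose the members; both are given as a description, with no test. The list is the set of intervals common to 4 CUT&RUN libraries of the transcription factor GATA4 in PaTu8988S, an established human pancreatic adenocarcinoma cell line. All 4 libraries form 1 group, with no treatment or genotype named: each used 500000 cells and 10 ug of the anti-GATA4 antibody MAB2606, and whether they came from separate cultures is not stated. A library made with an untargeted antibody was not analysed here. The list gives a chromosome, a start and an end per interval and no score, count or signal, so neither the height of the signal, nor the depth behind it, nor the spread between libraries could be measured.

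GATA4 is a zinc-finger protein of endoderm, pancreas and heart that binds DNA at the letters GATA. In CUT&RUN an antibody brings a nuclease to the protein in permeabilised cells, and the short DNA fragments cut free are sequenced. SEACR, the peak caller named in the submitters' processing notes, builds its candidate peaks from unbroken stretches of fragment coverage. How the peaks of the 4 libraries were combined into the common list is not given in the sources used here, so a listed width may be that of a shared part or of a merged whole. MYCN encodes a basic helix-loop-helix transcription factor of the MYC family, which pairs with MAX to bind E-box sequences and is best known as a gene amplified in neuroblastoma. DDX1 encodes a DEAD-box RNA helicase and is a neighbour of MYCN that is often amplified with it. DNA copy number was not measured in the files used here.

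Only MYCN and DDX1 can be placed among the intervals, since only their positions were at hand in the build of the list. In a RefSeq gene table of another assembly (GRCh38.p14), DDX1 is the protein-coding gene that precedes MYCN on the chromosome and CYRIA, which encodes an inhibitor of RAC1 signalling to actin, the one that follows it. The order along the chromosome in that table is TRIB2, NBAS, DDX1, MYCNUT, MYCNOS, MYCN, GACAT3 and CYRIA. MYCNUT, MYCNOS and GACAT3 are long non-coding RNA genes, and MYCNOS is antisense to MYCN. All 8 genes looked up were found, and no interval is assigned to the 6 for which no hg19 position was used.

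The promoters of both placed genes are shown because one of them lies under an interval and the other does not. Each is the 250 bases before the gene's start in RefSeq (GRCh38.p14, plus strand), with every GATA, on either strand, in capitals; GATA on the minus strand reads TATC here. MYCN is taken from chr2:15940300-15940549 and DDX1 from chr2:15591618-15591867 of that assembly. The gene starts in that assembly were not matched to the hg19 starts used to place both genes, and may differ from them.
MYCN: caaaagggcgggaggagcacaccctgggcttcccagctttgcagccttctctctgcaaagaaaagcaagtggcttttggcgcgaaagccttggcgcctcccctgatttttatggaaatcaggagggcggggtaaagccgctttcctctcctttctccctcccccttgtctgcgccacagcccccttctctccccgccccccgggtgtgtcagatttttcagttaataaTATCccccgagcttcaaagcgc
DDX1: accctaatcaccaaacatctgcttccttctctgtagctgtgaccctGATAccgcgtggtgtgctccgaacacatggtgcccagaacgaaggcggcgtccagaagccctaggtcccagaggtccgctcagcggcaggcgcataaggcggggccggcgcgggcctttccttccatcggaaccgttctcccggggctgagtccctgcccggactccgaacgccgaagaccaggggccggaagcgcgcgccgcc
Each of these holds 1 GATA, 22 bases before the start of MYCN and 204 bases before that of DDX1, counted to its first printed letter. At least 1 GATA is present in 45.6% of the 35116 promoters of the same length in the table. The longer motif in which A or T precedes GATA and A or G follows it, searched on both strands, was not found in these letters of either gene and was present in 22.3% of all promoters. GC content was 57.2% for MYCN and 66% for DDX1, with a median of 58% over all promoters. These matches describe the letters only.

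MYCN itself lay entirely under a single interval, chr2:16076309-16100967, which was 24658 bp wide and number 3 of the list by width. The gene (hg19 16080683 to 16087129, 6447 bp) took up 26.1% of that interval. The interval began 4374 bp before the start of MYCN, so it also spans the promoter, and it ran on for 13838 bp past the end of the gene. Its edges therefore do not follow those of the gene.

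DDX1 (hg19 15731302 to 15771235, 39934 bp) had no interval over any of its bases, nor within 50 kb on either side. The nearest interval on the MYCN side began 77.2 kb after the end of DDX1. On the other side the nearest, chr2:15491073-15491361, ended 240 kb before its start and was 288 bp wide. DDX1 thus lay in an interval-free run of 357 kb, while MYCN, 309 kb away, was fully covered. A run of that length was not unusual: 192 of the 943 gaps of chromosome 2 (20.4%) were as long or longer.

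**Figure D1:**
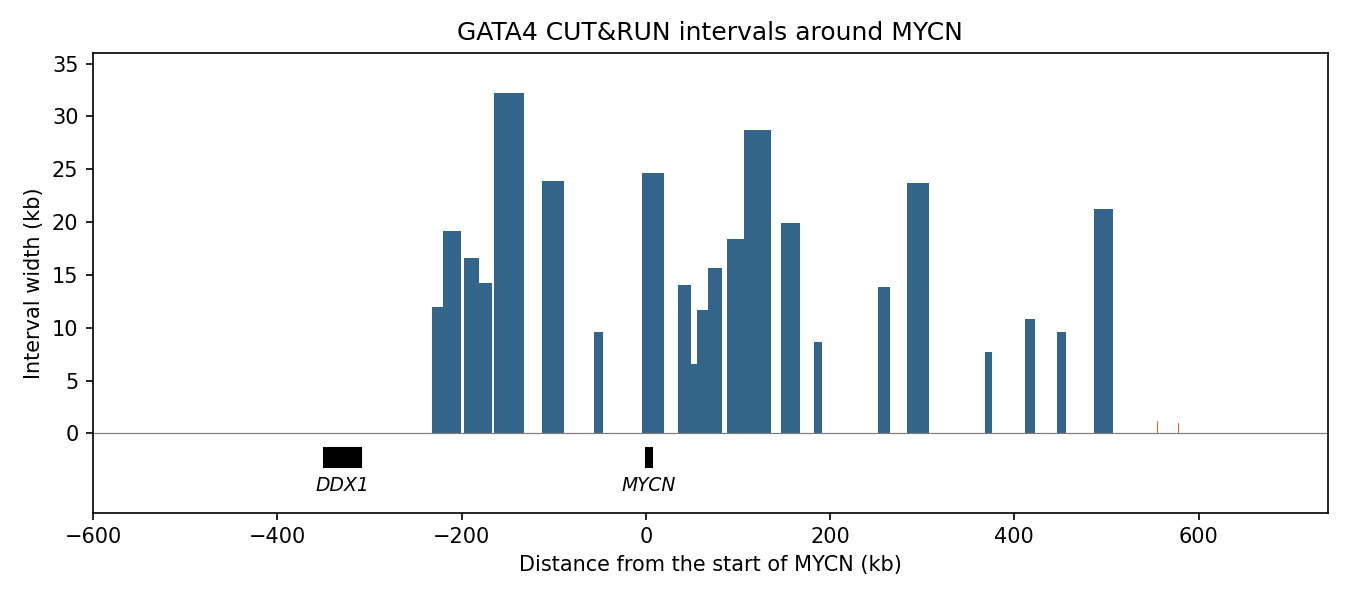
Each bar is 1 of the 24 intervals, drawn to scale along the x axis (distance in kb from the start of MYCN) with its width in kb as its height; black boxes mark DDX1 and MYCN. Wide intervals (blue, 5 kb or wider) run from 232 kb before MYCN to 501 kb past its end with none over DDX1, and the 2 narrow ones (orange) follow after the last of them.

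Of the 24 intervals 22 were 5 kb or wider, against 0.251% of all 21139 intervals (53 intervals), and 17 were 10 kb or wider, against 0.114% (24 intervals). Since width chose the region, these counts describe it and support nothing. The 22 wide intervals ran without any narrower one among them from 15848409 to 16588282, a stretch of 740 kb that they covered to 49.0%. Inside it the narrowest interval was 6572 bp, the median 14934 bp and the widest 32214 bp, a range of 4.90 times. No other interval of chromosome 2 reached the narrowest of these.

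Before MYCN the stretch held 7 whole intervals in 232 kb. The first 5 stood close together. They were chr2:15848409-15860414 (12005 bp), chr2:15860437-15879626 (19189 bp), chr2:15882952-15899513 (16561 bp), chr2:15899537-15913797 (14260 bp) and chr2:15915914-15948128 (32214 bp, the widest of the list). Gaps of 23, 3326, 24 and 2117 bp parted them, so that 94.5% of these 99.7 kb was covered. The other two on this side stood alone: chr2:15968260-15992112 (23852 bp) after a gap of 20.1 kb, and chr2:16024510-16034108 (9598 bp) after a further 32.4 kb. The interval over MYCN followed after 42.2 kb.

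Past MYCN the stretch held 14 whole intervals in 501 kb, and the nearest 6 again lay in tight runs. The first run joined chr2:16115614-16129664 (14050 bp), chr2:16129708-16136280 (6572 bp), chr2:16136308-16147970 (11662 bp) and chr2:16148047-16163655 (15608 bp) across gaps of 44, 28 and 77 bp, and was 48.0 kb long. The second joined chr2:16169208-16187586 (18378 bp) and chr2:16187624-16216371 (28747 bp, number 2 of the list by width) across 38 bp, and was 47.2 kb long. The second run ends 129 kb past the end of MYCN.

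The remaining 8 wide intervals were spaced 11.5 to 60.4 kb from the one before. They were chr2:16227911-16247781 (19870 bp), chr2:16263183-16271836 (8653 bp), chr2:16332226-16346111 (13885 bp) and chr2:16364436-16388157 (23721 bp), and farther out chr2:16448386-16456089 (7703 bp), chr2:16492579-16503445 (10866 bp), chr2:16527478-16537059 (9581 bp) and chr2:16567028-16588282 (21254 bp). The last of these, 480 kb past MYCN, was number 7 of the list by width and wider than each of the 3 before it.

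The edges of the stretch were abrupt. At 16588282 the intervals of over 5 kb stopped, and the next were chr2:16635411-16636602 (1191 bp) and chr2:16658874-16659879 (1005 bp), the 2 narrow members. Both were wide for chromosome 2, wider than 94.6% and 90.5% of its intervals outside the region. After them no interval was listed for 2352 kb, a gap that only 11 of the 943 gaps of chromosome 2 reached, itself included. On the DDX1 side the stretch began with 12005 bp directly after the interval-free run of 357 kb. The 1 Mb before the stretch held 4 intervals, none wider than 1492 bp, which covered 0.342% of it, and the 1 Mb after it held only the 2 narrow members (0.220%).

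The limits of the rule cut through no interval. The nearest interval outside on the left begins 8.93 kb before the limit, and the nearest on the right, chr2:19012269-19012611 (342 bp), lies 2212 kb beyond it. Moving either limit by a few kb would at most add the 288 bp interval.

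Width showed little relation to distance from MYCN. Over the 22 wide intervals, width and the distance of the interval's centre from the middle of MYCN had a Spearman rho of -0.12 and a Pearson r of -0.15, both given as a description over intervals that share the same 4 libraries. The median width was 16561 bp before MYCN and 13968 bp past it. Intervals covered 56.9% of the part of the stretch before MYCN and 44.8% of the part past it. In steps of 100 kb from the start of MYCN outward, 79.7%, 64.2%, 30.1%, 15.2%, 34.1% and 9.80% was covered, and in steps toward DDX1 25.4%, 75.5%, 31.2% and then 0%. The last step past MYCN holds the end of the stretch and both narrow members.

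**Figure D2:**
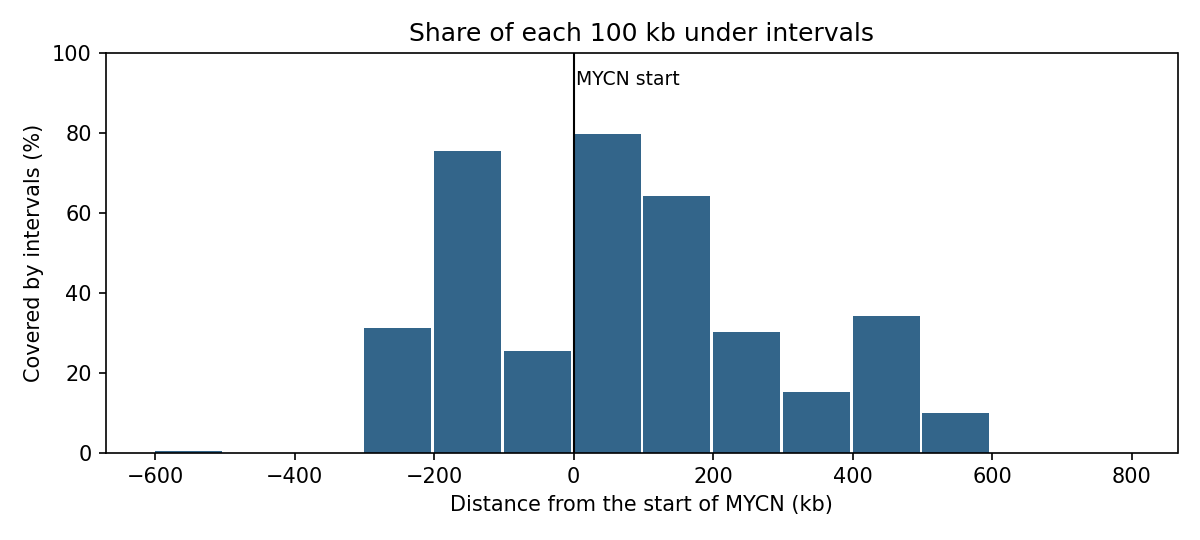
Bars give the percent of each 100 kb covered by intervals (y axis) by distance in kb from the start of MYCN (x axis, line at 0). The highest values are 79.7% directly past the start of MYCN and 75.5% from 200 to 100 kb before it, with 25.4% between.

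Among the 21 gaps inside the stretch, a set of very short ones stood apart from the rest. There were 6 of 23 to 77 bp, and the next shortest was 2117 bp. Of the others, 2 were up to 5 kb, 5 were between 5 and 20 kb, and 8 were longer, up to 60.4 kb. Gaps of 100 bp or shorter were 28.6% of gaps in the stretch, against 2.28% of the other 922 gaps of chromosome 2 and 4.66% of all gaps in the list. The 6 short gaps were below the average library fragment, which the labels' protocols give as 325 bp with 120 bp of adaptor. Joining intervals across them leaves 16 runs of 7703 to 48041 bp. In the stretch 10 of 22 intervals had a neighbour within 100 bp, and of the 31 intervals of 5 kb or wider elsewhere 10 did, as did 8.50% of all intervals outside the stretch.

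The rest of chromosome 2 looked different. Its 920 intervals had a median width of 492 bp (quartiles 359 and 667 bp), against 14155 bp (9594 and 20216 bp) for the 24, a ratio of 28.8. The 3 widest elsewhere on the chromosome were chr2:133021757-133027596 (5839 bp), chr2:91745005-91748243 (3238 bp) and chr2:91819248-91822450 (3202 bp). Intervals numbered 3.82 per Mb there and 18.5 per Mb in the 1.3 Mb. With 2.54% of the chromosome's intervals, the region held 40.1% of its covered length, 365 of 910 kb. Elsewhere intervals covered 0.226% of the chromosome, and in the region 28.1%.

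**Figure D3:**
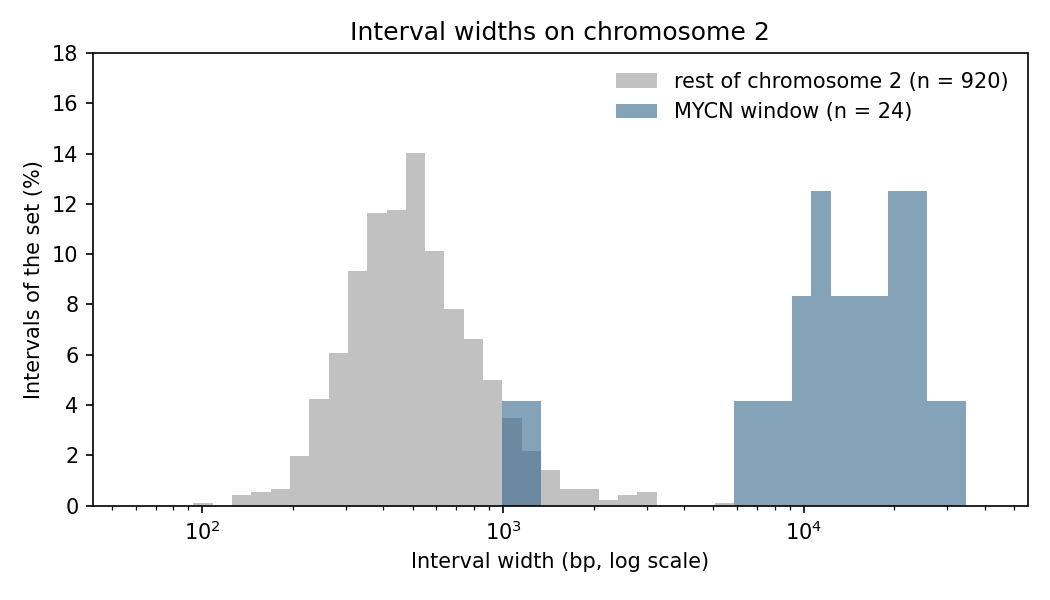
Histogram of interval width in bp (x axis, log scale) as percent of each set (y axis) for the 24 intervals around MYCN and the other 920 of chromosome 2. The 2 narrow members near 1 kb fall in the range of the other set, and the remaining 22 lie above its widest interval (5839 bp).

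The region also held more intervals than most windows of its length. Along the autosomes and chromosome X, 2301 windows of 1.3 Mb were laid end to end, placed so that the region was one of them. The start of each chromosome, before its first window, and the part past its last whole window were left out. The interval of 6261 bp from 105741 to 112002 of chromosome 18, for example, lay in no window. Counts and ranks of windows therefore do not cover chromosome ends. The median window held 3 intervals and 175 windows held more than the region's 24. On chromosome 2, 3 of 186 windows held more. By covered share only 2 windows exceeded its 28.1%. One was on chromosome 18 (20700000 to 22000000), where 442 intervals with a median of 1176 bp covered 48.0%. The other was on chromosome 19 (38900000 to 40200000), where 321 intervals with a median of 957 bp covered 28.7%. About the same length was thus covered around MYCN by 24 intervals as on chromosome 19 by 321.

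Among the 920 windows with 5 or more intervals the region had the highest median width, 14155 bp, and the next highest was 1771 bp. The 40 other windows with 22 to 26 intervals had medians of 242 to 952 bp and were covered to between 0.567% and 2.12%. Only 1 of them held any interval of 5 kb or wider.

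**Figure D4:**
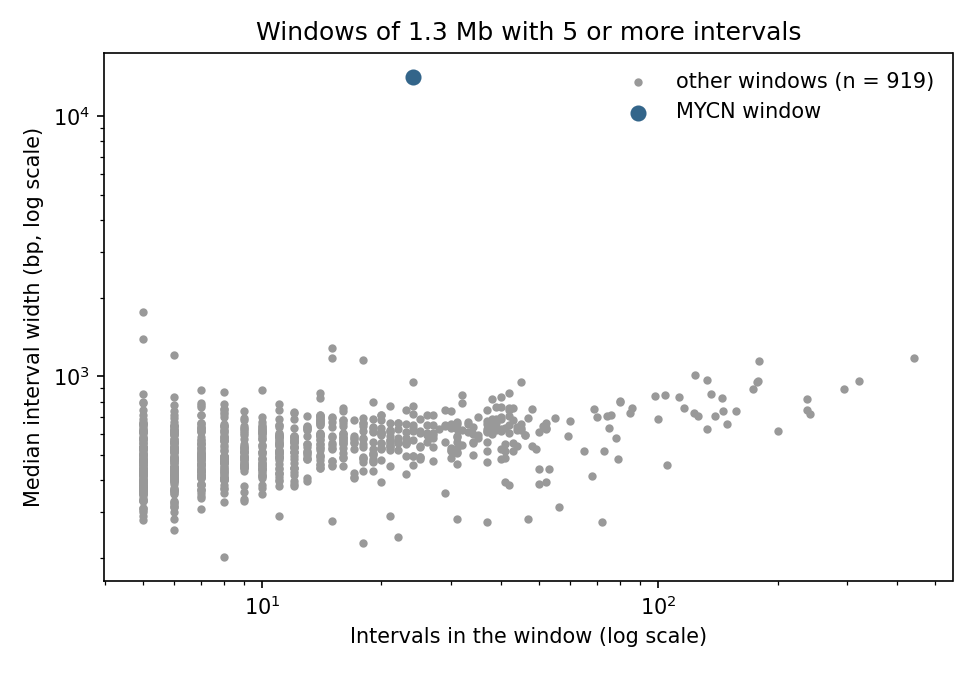
Each point is a window of 1.3 Mb with 5 or more intervals, by its number of intervals (x axis, log scale) and their median width in bp (y axis, log scale). The window around MYCN, with 24 intervals, stands at 14155 bp, above the next highest window at 1771 bp.

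Elsewhere, intervals of 5 kb or wider mostly stood apart from each other. Of these 31, 3 lay within 1 Mb of the longest interval-free run of their chromosome, and 2 touched it. That run need not hold the centromere. On chromosome 4 it went from 159842061 to 166519995, 111 Mb from the wide intervals of that chromosome named below. Centromere positions were not used, so how many of the 31 lay beside a centromere was not measured. Linked where they lay within 250 kb of each other, the 53 of the list formed 25 groups, and 20 of these were a single interval. The group around MYCN had 22 and a summed width of 363 kb. The next 3 groups by summed width were on chromosome 4 from 49102614 to 49157590 (3 wide intervals, 30.1 kb), on chromosome 19 from 39434280 to 39858045 (3, 23.2 kb) and on chromosome 19 from 36778255 to 36800944 (1, 22.7 kb).

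These groups differed in what lay between and around their wide intervals. The longer group of chromosome 19 held 175 narrower intervals among its 3 wide ones, with a median of 1008 bp over all 178, and a further 77 narrower ones within 250 kb outside it. The chromosome 4 group held 6 narrower intervals, and 41 followed within 250 kb on one side. The single interval of chromosome 19 had 14 within 250 kb. Around MYCN there were 0 narrower intervals inside the stretch and 2 within 250 kb of it. No test was made of these differences, since the groups were picked by width.

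**Figure D5:**
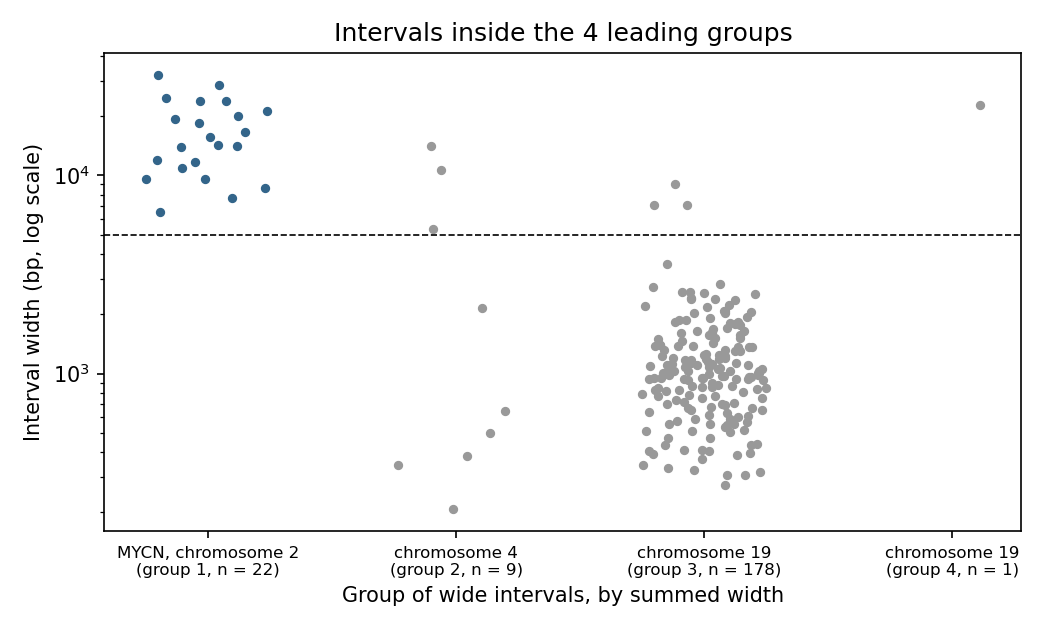
Points are all intervals inside the 4 leading groups of wide intervals (x axis; n = 22, 9, 178 and 1), by width in bp (y axis, log scale); the dashed line marks 5 kb and sideways scatter is for visibility. All 22 intervals of the MYCN group lie above the line, while 175 of the 178 in the longer chromosome 19 group lie below it.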

How the data were processed

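Occupancy of GATA4 was measured by CUT&RUN in 4 libraries of PaTu8988S cells. Per the submitters' processing notes, SEACR and HOMER were used with build hg19 (settings, versions and how far libraries had to overlap: not given in the sources used here). The authors deposited 1 list of start and end positions in bp, pooled over the libraries. Positions are printed as listed; whether starts count from 0 or 1 is not stated, and width is end minus start. Replicates could not be compared, and depth is unknown. Intervals off the autosomes and chromosome X were left out.

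Widths, gaps, coverage, overlap with the 2 placed genes and fixed windows of 1.3 Mb were computed in Python 3.11.15 with pandas 2.3.3, numpy 2.4.6 and scipy 1.17.1, after the functions were tested on simulated intervals. No significance test was run. Named were MYCN, DDX1, listed neighbours by order, every interval of the region and the 3 next groups of wide intervals by summed width. The members, genes and limits were chosen with earlier results of these data known. Promoter letters come from RefSeq (GRCh38.p14), matched by symbol for 2 of 2 genes.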

Additional observations from a re-analysis of the deposited data

How the results depend on the processing

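Of 20 recomputed values, 19 stayed within 1.5 times the value reported. The exception was the covered share, which was 49.0% when counted from the first to the last interval of 5 kb or wider, since that leaves out the empty ends of the 1.3 Mb. The median width lay between 14155 and 20562 bp, the upper value after intervals within 100 bp or 1 kb were merged. The ratio to the background lay between 20.7 (intervals of 500 bp or wider) and 41.2 (merged within 1 kb), and was 24.2 against all other intervals. Because the list is pooled, no value without 1 of the libraries could be had. No paired analysis was possible because the 4 libraries form 1 group and the list has no column per library.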
